A study of Mus musculus with 18 samples.

Results

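The entry of fatty acids into cells and their activation to acyl-CoA were followed through 10 genes, Cd36, Slc27a2, Slc27a1, Fabp1, Fabp4, Lpl, Acsl1, Acsl3, Acsl4 and Acsl5. They were picked by gene symbol from a list of known uptake and activation genes. The choice was made with earlier results of these data known. All 10 stand among the 20105 genes of the count table.

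During a fast, adipose tissue releases fatty acids, and the liver takes up a large part of them for oxidation and ketone body production. CD36 and the fatty acid transport proteins, coded by the Slc27a genes, carry long-chain fatty acids into cells, lipoprotein lipase (coded by Lpl) frees them from circulating triglyceride, and fatty acid binding proteins (the Fabp genes) keep them soluble in the cytosol. Long-chain acyl-CoA synthetases, coded by the Acsl genes, then join them to coenzyme A, which keeps them in the cell and commits them to oxidation or to lipid synthesis. Several of these genes are textbook targets of PPARA, the nuclear receptor that binds fatty acids in the fasting liver.

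Nuclear RNA was sequenced from livers of female HEP-INTACT mice, whose tagged hepatocyte nuclei can be bound to beads by immunoprecipitation (IP). The 6 groups of 3 libraries were IP of frozen liver from fasted mice, IP of frozen liver from fed mice, IP of fresh liver from fasted mice, IP of fresh liver from fed mice, supernatant of the fresh IP from fasted mice and supernatant of the fresh IP from fed mice. Fasted mice went without food for 16 h from zeitgeber time (ZT) 12, the onset of their active phase, fed mice ate ad libitum and were killed at the same clock time, and the same 3 fasted and 3 fed mice served all preparations by the numbers in the library titles. All groups carry the tag, so no group shows its effect, and neither the promoter that drives it nor the age of the mice is given in the sources used here. The supernatant is the nuclei the beads did not hold, and it may hold hepatocyte nuclei too.

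The 18 libraries held 13828945 to 54434263 counts, the lowest being frozen IP library B of fed mice. In the library titles, a frozen IP library of fed mice carries a number far outside the run of the others. No label says which letter that library has. Values are counts scaled for depth (CPM, with TMM factors over the 18 libraries) and, where levels of different genes are compared, CPM per kb of the deposited gene length, which spans exons and introns. Differences are log2 fold changes with the standard error (SE) of the difference between the 2 group means, and p-values are from edgeR's quasi-likelihood test, adjusted over all genes tested with 0.05 as the threshold. Libraries are named by the letters A, B and C of the count table. Within a feeding state, same-lettered libraries of different preparations deviated together, so a letter is read as a mouse. As for the tissue labels, the summed level of 14 hepatocyte markers was 15857 to 31417 CPM in IP libraries against 685 to 1807 CPM in supernatants, and that of 14 Kupffer cell and macrophage markers was 13.7 to 130.4 CPM in IP against 4287 to 8676 CPM in supernatants. All 14 hepatocyte markers were higher, and all 14 macrophage and 15 endothelial markers lower, in IP than in supernatant in both feeding states.

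On the mm10 build the genes lie at chr5:17781690-17888959 (Cd36), chr2:126553024-126588243 (Slc27a2), chr8:71568927-71586708 (Slc27a1), chr6:71199888-71205023 (Fabp1), chr3:10204343-10208576 (Fabp4), chr8:68880555-68906932 (Lpl), chr8:46471037-46536051 (Acsl1), chr1:78657825-78707743 (Acsl3), chrX:142317993-142390535 (Acsl4) and chr19:55253369-55296628 (Acsl5), whole transcribed regions as deposited. In the GENCODE annotation of this build, 4 of them share bases with another gene. Acsl5 overlaps Zdhhc6 on the opposite strand over 25338 bases, Acsl3 overlaps Utp14b on its own strand over 13475 bases (Utp14b was not analysed here), Acsl1 overlaps Gm45244 over 2200 bases and Slc27a2 overlaps Gm26697 over 639 bases, both on the opposite strand. Because no source used here names the strand setting of the counting, reads in these stretches cannot be told apart. Zdhhc6 itself was counted at 64.9 ± 7.22 CPM in fasted and 50.1 ± 4.12 CPM in fed fresh IP (n = 3 each), with a change of 0.39 (adjusted p = 0.0574), opposite in sign to that of Acsl5.

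Promoters were looked up in a RefSeq table of GRCm38.p6, which matched 8 of the 10 genes. The 250 bases before the start are printed for 4 of them, because these cover the range of fasting changes described next, namely Slc27a2 and Acsl1, which rose in hepatocyte nuclei, Acsl3, which fell, and Fabp1, which did not pass the test there. The strand given is the strand printed, 5′ to 3′. Capitals mark AGGTCA on either strand (TGACCT on the opposite one), the pair of AGGTCA copies 1 base apart (DR1, the element that PPARA binds together with RXR) with up to 2 mismatches, and TATAAA.
Fabp1, chr6:71199629-71199878, + strand: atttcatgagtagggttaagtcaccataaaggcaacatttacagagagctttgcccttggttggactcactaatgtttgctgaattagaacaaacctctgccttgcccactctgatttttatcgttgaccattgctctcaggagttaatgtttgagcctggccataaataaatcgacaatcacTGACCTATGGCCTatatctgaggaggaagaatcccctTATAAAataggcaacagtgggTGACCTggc
Slc27a2, chr2:126552774-126553023, + strand: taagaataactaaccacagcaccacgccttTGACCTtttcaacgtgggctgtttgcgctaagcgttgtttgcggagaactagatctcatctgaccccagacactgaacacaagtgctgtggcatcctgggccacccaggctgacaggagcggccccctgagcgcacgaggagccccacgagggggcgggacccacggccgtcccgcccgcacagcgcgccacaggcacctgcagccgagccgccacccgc
Acsl1, chr8:46470787-46471036, + strand: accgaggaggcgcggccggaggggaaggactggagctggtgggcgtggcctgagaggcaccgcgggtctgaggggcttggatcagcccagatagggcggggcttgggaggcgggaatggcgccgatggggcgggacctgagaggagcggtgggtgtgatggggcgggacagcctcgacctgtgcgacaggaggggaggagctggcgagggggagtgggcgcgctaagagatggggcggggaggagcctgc
Acsl3, chr1:78657575-78657824, + strand: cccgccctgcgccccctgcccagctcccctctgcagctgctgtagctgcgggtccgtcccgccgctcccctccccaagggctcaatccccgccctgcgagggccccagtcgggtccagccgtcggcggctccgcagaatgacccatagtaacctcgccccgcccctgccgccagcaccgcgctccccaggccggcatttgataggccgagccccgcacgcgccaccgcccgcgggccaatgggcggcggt
The Fabp1 promoter holds a DR1 with 1 mismatch that begins 67 bases before the RefSeq start and takes in 1 of its 2 AGGTCA matches, and a TATAAA 30 bases before the start. The Slc27a2 promoter holds 1 AGGTCA, no DR1 and 2 copies of GGGCGG. The Acsl1 and Acsl3 windows hold none of these motifs but 4 and 5 copies of GGGCGG on either strand, the letters that Sp1 family factors bind. Among 32851 promoters of the table, 14% hold AGGTCA, 3.24% a DR1 by the same rule, 12.4% TATAAA and 32.7% GGGCGG. The Cd36 promoter of the table, 53063 bases from the deposited start of the gene, also holds a DR1, with 2 mismatches.

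The levels of the genes in hepatocyte nuclei spanned a wide range per kb. In fresh IP of fasted mice Fabp1 (liver fatty acid binding protein) stood at 70.02 ± 27.5 CPM per kb, Slc27a2 (FATP2, also a very long-chain acyl-CoA synthetase) at 55.1 ± 8.27 and Acsl1 at 32.2 ± 11.5 (SD, n = 3 libraries for each). In fed mice the same 3 led with 66.8 ± 17.6, 24.2 ± 4.25 and 17.4 ± 1.56 CPM per kb. The libraries of neighbouring genes in this order did not overlap in fed mice, while Fabp1 and Slc27a2 overlapped in fasted mice.
Next came Acsl5, Acsl4, Slc27a1 and Acsl3 in fasted mice, at 3.37 ± 1.23, 2.33 ± 0.231, 1.80 ± 0.923 and 1.06 ± 0.130 CPM per kb, each overlapping its neighbour. Fed mice had Acsl5, Acsl3, Acsl4 and Slc27a1 in that order, at 6.55 ± 3.15, 3.29 ± 0.881, 2.43 ± 0.384 and 0.470 ± 0.0100 CPM per kb. Cd36 reached 0.695 ± 0.478 CPM per kb in fasted and 0.351 ± 0.178 in fed mice. Lpl and Fabp4 were close to the limit of detection in these nuclei, with 9 to 31 and 1 to 7 counts per library.
The plot of the level in every library shows that Fabp4 and Lpl were higher in supernatants than in fresh IP. Fabp4 stayed low there, at 0.899 to 1.65 CPM in fed supernatants, which overlapped the 0.216 to 1.42 CPM of fed frozen IP. Slc27a2, Fabp1 and Acsl1 were high in IP, and the 6 group means of Acsl4 spanned 128 to 176 CPM.

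**Figure D1:**
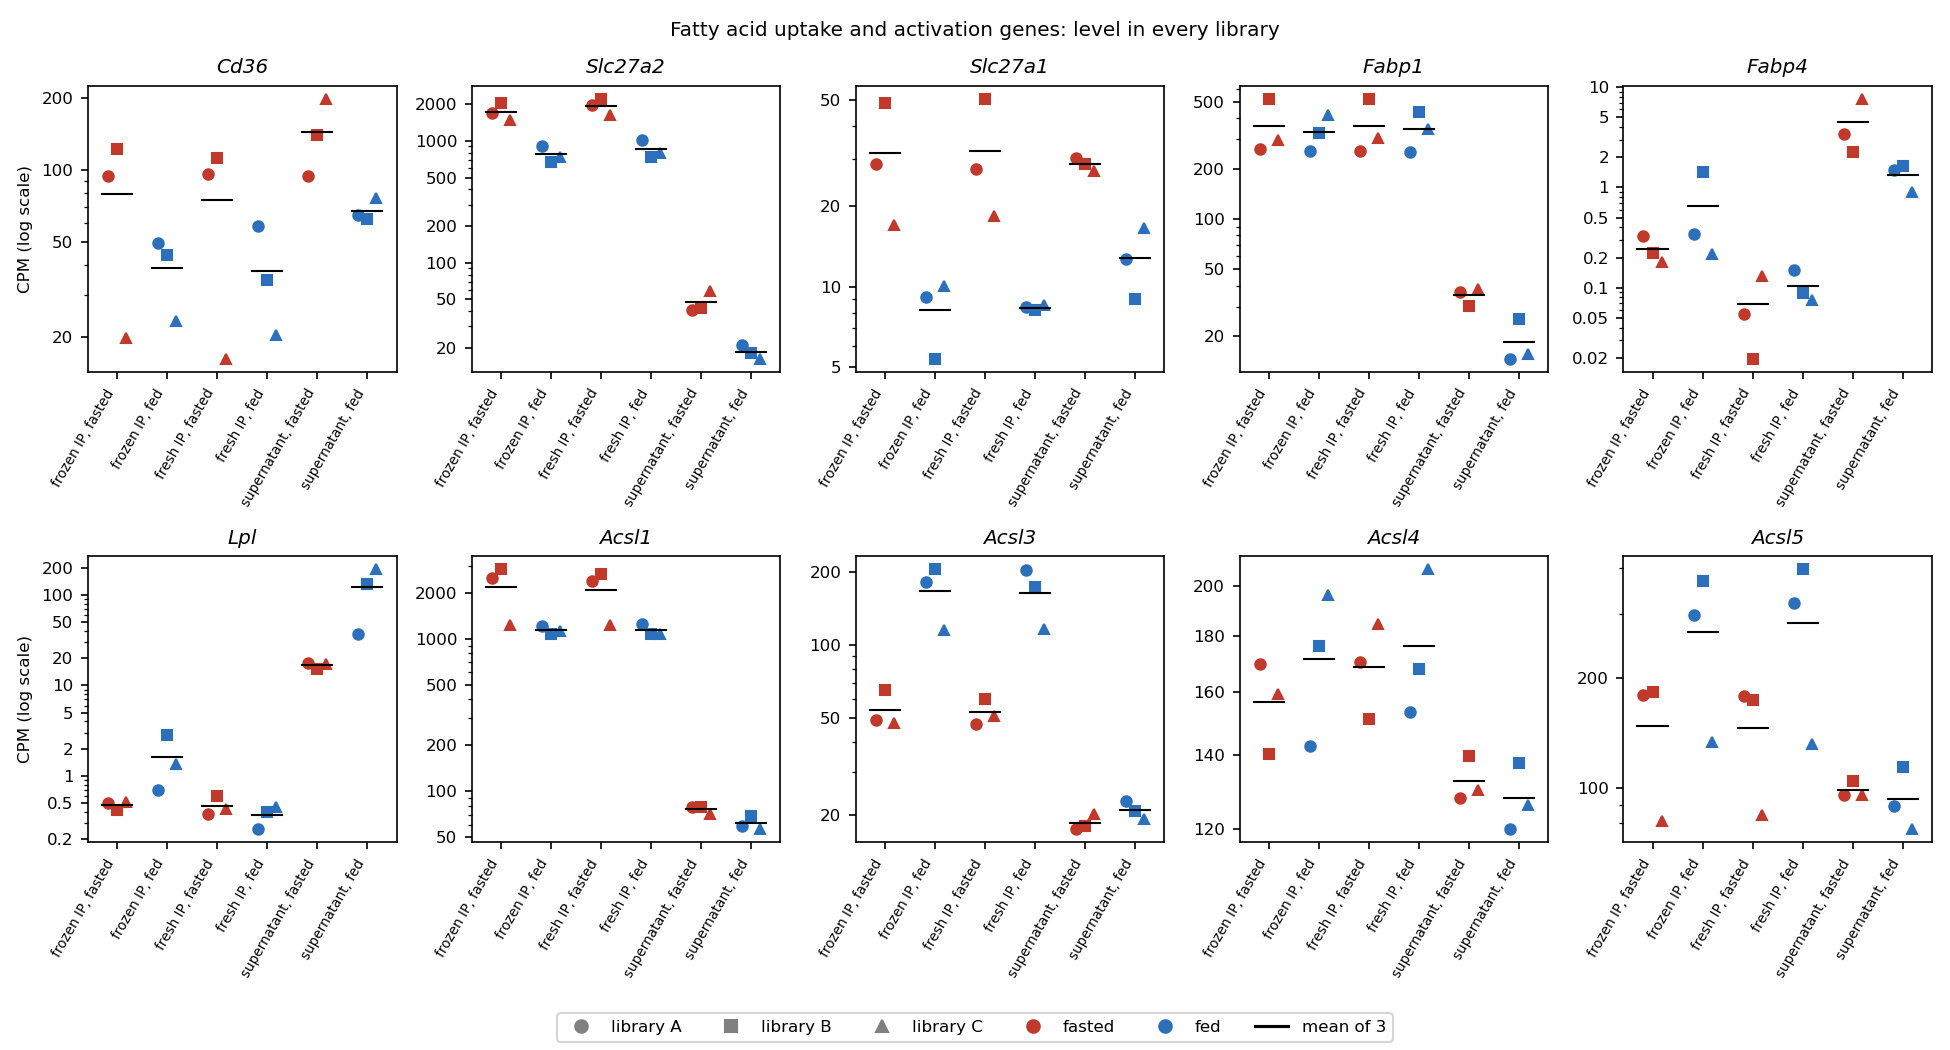
CPM of each gene (log axis) in every library by group, frozen IP, fresh IP and supernatant, with fasted mice in red left of fed mice in blue, shapes for library letters and a black bar for the mean of 3. Slc27a2 in fresh IP lay between 1629 and 2206 CPM in fasted and between 738 and 1022 CPM in fed mice, whereas Cd36 spread from 16.1 to 112 CPM among fasted mice.

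The first question is how fasting changed these genes in hepatocyte nuclei of fresh liver. Slc27a2, Slc27a1 and Acsl1 rose and Acsl3 fell, 4 of the 9 genes that could be tested, where 25.1% of all 12548 genes tested passed the threshold. Fabp4 had too few counts to be tested. The median change of the 9 was 0.40, against 0.01 over all genes. That median is the value of Lpl, which had few counts and did not pass. In frozen IP of the same mice, with all 10 tested, the median was -0.01.

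Among the transporters, Slc27a2 had 1988, 2206 and 1629 CPM in fasted libraries A, B and C, against 1022, 738 and 799.9 CPM in fed libraries A, B and C. Every fasted library lay above every fed one, a 2.31-fold rise (1.21 ± 0.19, adjusted p = 0.00424). Slc27a1 (FATP1, the main transport protein of muscle and fat) had 27.4, 50.3 and 18.5 CPM in fasted mice, against 8.37, 8.18 and 8.54 CPM in fed mice. The fed mice were nearly alike and the fasted ones varied, yet the groups did not overlap and the rise was 3.89-fold (1.96 ± 0.42, adjusted p = 0.00649). Even so, in fasted nuclei Slc27a1 reached 1.80 ± 0.923 CPM per kb, against 55.1 ± 8.27 for Slc27a2. Both calls held when any 1 library was left out.

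Cd36 (fatty acid translocase) had 95.6, 112 and 16.1 CPM in fasted mice, against 58.1, 34.5 and 20.4 CPM in fed mice. Fasted A and B lay above all fed libraries, but fasted C was the lowest of the 6, so the groups overlapped and the change did not pass (1.01 ± 0.995, adjusted p = 0.279). Without fasted C it was 1.48, adjusted p = 0.0379. The supernatant of the same lettered mouse did not share this, since it had the highest Cd36 of the 3 fasted supernatants.

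Of the intracellular binding proteins, Fabp1 had 254, 520.1 and 305 CPM in fasted mice, against 252, 433 and 344 CPM in fed mice. The groups covered the same range, and its difference was 0.08 ± 0.38, adjusted p = 0.855. Fabp4 (the adipocyte and macrophage binding protein, also called aP2) gave 7 counts in all in the 3 fasted libraries and 12 in the 3 fed ones. Lpl had 0.385, 0.601 and 0.428 CPM in fasted mice, against 0.258, 0.396 and 0.452 CPM in fed mice, overlapping levels that did not pass (0.40 ± 0.27, adjusted p = 0.464).

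Of the synthetases, Acsl1, the main long-chain acyl-CoA synthetase of liver, had 2395, 2642 and 1236 CPM in fasted mice, against 1249, 1076 and 1071 CPM in fed mice. Fasted A and B were high and fasted C lay just under the highest fed library. The rise of 1.87-fold passed narrowly (0.91 ± 0.35, adjusted p = 0.0452), and the call was lost in 5 of the 6 fits that left out 1 library: without fasted A (0.79, adjusted p = 0.141), fasted B (0.70, adjusted p = 0.115), fed A (0.97, adjusted p = 0.0911), fed B (0.87, adjusted p = 0.126) or fed C (0.86, adjusted p = 0.0901).
Acsl3, the isoform of the endoplasmic reticulum and lipid droplets, had 47.4, 59.98 and 51.1 CPM in fasted mice, against 203, 173 and 117 CPM in fed mice. All fasted libraries lay far below all fed ones, a 3.06-fold fall (-1.62 ± 0.26, adjusted p = 0.00211) that held when any 1 library was left out. Part of this gene overlaps Utp14b on the same strand.
Acsl5, an isoform of mitochondria and endoplasmic reticulum, had 179, 174 and 84.5 CPM in fasted mice, against 320.3, 398 and 132 CPM in fed mice. Library C was the lowest of its group in both feeding states, the groups overlapped and the difference was -0.93 ± 0.60, adjusted p = 0.139. Without fed C it was -1.28, adjusted p = 0.0269. Acsl4, which prefers arachidonic acid, had 170.5, 151 and 185 CPM in fasted mice, against 153, 168 and 207 CPM in fed mice, fully overlapping (-0.05 ± 0.15, adjusted p = 0.845).

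The make-up of the synthetase family was set out as shares. Of the summed CPM per kb of Acsl1, Acsl3, Acsl4 and Acsl5, Acsl1 took 83.2, 84.7 and 77.5% in fasted fresh IP libraries A, B and C, against 58.6, 52.5 and 66.6% in fed ones. Acsl3 took 2.14, 2.51 and 4.17% in fasted libraries, against 12.4, 11.02 and 9.45% in fed ones. For both genes the groups did not overlap, and the exact permutation p (two-sided) was 0.1, the smallest that 3 against 3 allows. Acsl5 took 8.57 ± 0.71% in fasted and 21.4 ± 8.46% in fed mice. Its libraries did not overlap either, at 7.96 to 9.36% in fasted and 12.4 to 29.2% in fed mice, and no permutation p was computed for it. The CPM of Acsl5 itself overlapped between feeding states and did not pass in edgeR (adjusted p = 0.139). Acsl4 took 6.67 ± 3.24% in fasted and 8.45 ± 2.73% in fed mice.

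In the authors' deposited table the fasting changes in fresh IP were 1.14 for Slc27a2, 1.89 for Slc27a1, 0.84 for Acsl1 and -1.68 for Acsl3, with adjusted p of 4.08e-08, 7.96e-06, 0.0113 and 2.58e-12. The same table gives -1.002 for Acsl5 with adjusted p of 0.0564 and 0.95 for Cd36 with adjusted p of 0.308.

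Frozen tissue of the same mice gave 5 of 10 genes past the threshold, where 22.6% of 12926 genes passed. Slc27a2, Slc27a1 and Acsl1 rose and Acsl3 fell by nearly the same amounts as in fresh tissue, and Lpl fell as well. Slc27a2 had 1692, 2045 and 1471 CPM in fasted mice, against 909, 675 and 736 CPM in fed mice (1.17 ± 0.19, adjusted p = 0.00541). Acsl3 had 49.4, 65.03 and 47.8 CPM in fasted mice, against 182, 205 and 116 CPM in fed mice (-1.63 ± 0.29, adjusted p = 0.00330). In both genes the groups stood well apart. The changes of Slc27a1 and Acsl1 were 1.92 ± 0.52, adjusted p = 0.0122, and 0.95 ± 0.38, adjusted p = 0.0474, the second again lost in 5 of 6 fits that left out 1 library, all but the one without fasted C (adjusted p between 0.0925 and 0.145 in those 5). Not past the threshold were Cd36 (1.02 ± 0.89, adjusted p = 0.232), Fabp1 (0.11 ± 0.37, adjusted p = 0.808), Fabp4 (-1.15 ± 0.77, adjusted p = 0.287), Acsl4 (-0.13 ± 0.16, adjusted p = 0.546) and Acsl5 (-0.85 ± 0.59, adjusted p = 0.168). Without fasted C the change of Cd36 was 1.48, adjusted p = 0.0232, and without fed C that of Acsl5 was -1.18, adjusted p = 0.0493.

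Lpl in frozen IP had 0.501, 0.421 and 0.514 CPM in fasted mice, against 0.693, 2.84 and 1.36 CPM in fed mice. Fed B was the highest and the groups did not overlap (-1.67 ± 0.57, adjusted p = 0.0475). The call was lost without fasted A (-1.72, adjusted p = 0.128), fasted B (-1.60, adjusted p = 0.123), fasted C (-1.73, adjusted p = 0.105), fed B (-1.12, adjusted p = 0.0799) or fed C (-1.79, adjusted p = 0.0809). These values rest on 17 to 63 counts a library. With all 18 libraries in one fit it was -1.59, adjusted p = 0.0629. DESeq2 kept the call (-1.71, adjusted p = 0.00856), and the authors' deposited table gives -1.79 with adjusted p of 0.00399 for frozen IP. The macrophage marker sum was 47.2, 41.2 and 38.8 CPM in fasted frozen IP libraries A, B and C and 40.8, 130.4 and 44.7 CPM in fed ones, so the feeding states overlapped and fed B stood out. Of the 14 macrophage markers 1 rose and 1 fell, and all 14 had counts in every group. The endothelial marker sum was 135 to 198 CPM in fasted frozen IP. In fed frozen IP A, B and C it was 226, 320 and 229 CPM, without overlap and again highest in B. Of 15 endothelial markers 1 rose and 6 fell (median -0.73). The lymphocyte marker sum was 20.8 to 31.2 CPM in fasted and 20.6, 45.8 and 31.9 CPM in fed A, B and C. Of 13 tested stellate cell and fibroblast markers 0 rose and 4 fell (median -0.63). Their sum in fed A, B and C was 94.3, 134 and 137 CPM, with C the highest. The part of these cell types in the fall of Lpl was not tested. Fabp4, like Lpl, was highest in fed B, with 0.326, 0.223 and 0.180 CPM in fasted and 0.346, 1.42 and 0.216 CPM in fed frozen IP.

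The nuclei left in the supernatant, labelled as non-hepatocyte, gave 5 of 10 genes past the threshold, where only 6.22% of 13921 genes passed. Slc27a2, Slc27a1, Cd36 and Fabp1 rose and Lpl fell, and none of the 4 synthetases passed. In these bulk preparations, fewer nuclei of a type and less RNA per nucleus cannot be told apart.
Lpl had 17.9, 15.1 and 17.2 CPM in fasted supernatants, against 36.9, 133 and 191 CPM in fed ones. The fasted mice were nearly alike, all fed mice lay above them with a wide spread, and the fall was 7.17-fold (-2.84 ± 0.72, adjusted p = 0.0262). The call was lost in 5 of 6 fits that left out 1 library, all but the one without fed A, with values of -2.90 to -2.32 and adjusted p of 0.062 to 0.101. DESeq2 kept the call (-2.85, adjusted p = 0.000271). The macrophage marker sum was 4287 to 5886 CPM in fasted and 5988 to 8676 CPM in fed supernatants, with none of the 14 markers past the threshold and a median change of -0.33. Its part in the fall of Lpl was not tested.

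Cd36 had 94.2, 139.8 and 198 CPM in fasted supernatants, against 64.5, 61.9 and 76.04 CPM in fed ones. All fasted libraries lay above all fed ones and the rise was 2.14-fold (1.10 ± 0.32, adjusted p = 0.0431). The endothelial marker sum was 3686, 4154 and 4987 CPM in fasted supernatants A, B and C, against 3929, 3086 and 2991 CPM in fed ones. Its order was that of Cd36 in fasted supernatants only. Among fed ones, C had the highest Cd36 and the lowest endothelial sum. The endothelial sums of the feeding states overlapped. Of the 15 endothelial markers 2 rose and 0 fell (median 0.41), and their part in the rise of Cd36 was not tested. Slc27a1 had 30.3, 28.8 and 27.00 CPM in fasted supernatants, against 12.6, 9.03 and 16.6 CPM in fed ones, again without overlap (1.18 ± 0.26, adjusted p = 0.0229).
Slc27a2 and Fabp1, both strongly enriched in hepatocyte nuclei, rose in supernatant as well. Slc27a2 had 40.7, 42.5 and 58.5 CPM in fasted supernatants, against 21.03, 18.2 and 16.2 CPM in fed ones (1.36 ± 0.20, adjusted p = 0.00696). Fabp1 had 36.8, 30.4 and 38.4 CPM in fasted supernatants, against 14.6, 25.3 and 15.7 CPM in fed ones (0.94 ± 0.27, adjusted p = 0.0451). In neither gene did the feeding states overlap. The summed level of the 14 hepatocyte markers was 1122 to 1807 CPM in fasted and 685 to 1156 CPM in fed supernatants, 3 of 13 tested markers rose and none fell, and their part in the rises of Slc27a2 and Fabp1 was not tested. Fabp4 had 3.45, 2.28 and 7.63 CPM in fasted supernatants, against 1.49, 1.65 and 0.899 CPM in fed ones, groups that did not overlap but a change that did not pass (1.72 ± 0.57, adjusted p = 0.0686).
Acsl1 (0.32 ± 0.10, adjusted p = 0.102), Acsl3 (-0.16 ± 0.10, adjusted p = 0.397), Acsl4 (0.06 ± 0.07, adjusted p = 0.710) and Acsl5 (0.09 ± 0.17, adjusted p = 0.760) did not pass. Apart from Slc27a2, the supernatant calls were fragile when 1 library was left out. Cd36 lost its call without fasted B, fasted C, fed A, fed B or fed C (adjusted p 0.0655 to 0.118), Fabp1 without fasted A, fasted B, fasted C, fed A or fed C (0.0638 to 0.139) and Slc27a1 without fasted A, fasted B or fed A (0.0556 to 0.0863). With all 18 libraries in one fit all 3 calls were lost (1.10, adjusted p = 0.421 for Cd36, 0.94, adjusted p = 0.121 for Fabp1 and 1.18, adjusted p = 0.0897 for Slc27a1). DESeq2 kept all 3 (adjusted p = 0.000366 for Cd36, 0.000896 for Fabp1 and 8.63e-06 for Slc27a1). Fabp4 gained a call in DESeq2 with all libraries of the comparison (1.72, adjusted p = 0.00259) and in edgeR without fasted B (2.03, adjusted p = 0.0428).

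**Figure D2:**
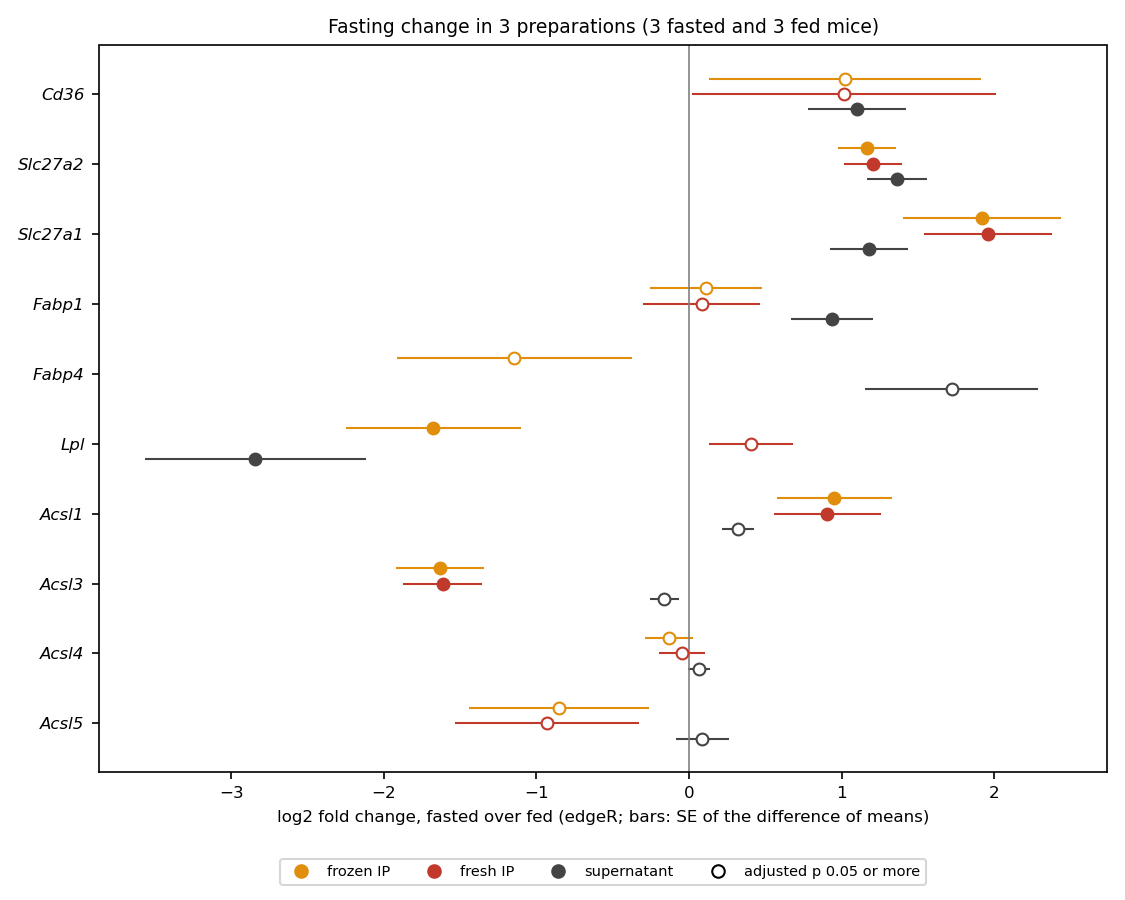
Log2 fold change (fasted over fed) of each gene in frozen IP, fresh IP and supernatant from edgeR, with bars for SE and open circles for adjusted p of 0.05 or more. Slc27a2 changed by 1.17, 1.21 and 1.36 in the 3 preparations, whereas Acsl3 fell by 1.63 and 1.62 in the 2 IPs and had -0.16 in supernatant.

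Whether a fasting change differed between hepatocyte nuclei and supernatant was tested as the difference of the 2 changes in fresh liver, which passed for 2 of 10 genes, where 9.54% of 14322 genes passed. Acsl3 fell more in IP than in supernatant, by -1.51 ± 0.28, adjusted p = 0.00406. Lpl had the opposite difference of 3.24 ± 0.77, adjusted p = 0.0415, with a change of 0.40 in IP against -2.84 in supernatant. The Acsl3 difference held in every fit that left out 1 library, while that of Lpl was lost in 11 of 12, all but the one without fed supernatant A, with adjusted p of 0.0591 to 0.114 in those 11. The main fit leaves out that IP and supernatant share mice. With the mouse as replicate block both passed (-1.49, adjusted p = 0.00647 for Acsl3 and 3.06, adjusted p = 0.00814 for Lpl). DESeq2 called both as well (adjusted p = 9.82e-07 for Acsl3 and 0.000191 for Lpl). The changes of Slc27a2 (difference -0.21 ± 0.28, adjusted p = 0.653), Slc27a1 (0.74 ± 0.49, adjusted p = 0.331), Acsl1 (0.54 ± 0.37, adjusted p = 0.331) and Acsl5 (-1.06 ± 0.62, adjusted p = 0.206) were not shown to differ. Leaving out 1 library brought 3 further genes past the threshold: Acsl1 without fasted IP C (0.82, adjusted p = 0.0170), Acsl5 without fed IP C (-1.39, adjusted p = 0.0436) and Fabp1 without fasted IP B (-1.30, adjusted p = 0.0378, against -0.90 ± 0.47, adjusted p = 0.197 with all libraries). Fabp4 gave -2.57 ± 0.72, adjusted p = 0.140, and -2.50, adjusted p = 0.0316 with the mouse as replicate block.

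The next comparison sets hepatocyte nuclei against the supernatant of the same livers. In fasted mice 5 of the 10 genes were higher in IP and 2 lower, where 80.6% of 14000 genes differed. In fed mice 6 were higher and 4 lower, where 76.4% of 13881 genes differed. Passing this test was thus common among all genes. The main fit leaves out that IP and supernatant share mice.
Slc27a2 (5.31 ± 0.21 in fasted and 5.52 ± 0.18 in fed mice), Acsl1 (4.73 ± 0.35 in fasted and 4.19 ± 0.11 in fed mice) and Fabp1 (3.30 ± 0.33 in fasted and 4.20 ± 0.34 in fed mice) were strongly enriched in IP. Their adjusted p ran from 8.32e-08 to 3.28e-05. The 14 hepatocyte markers had a median enrichment of 4.28 in fasted and 4.69 in fed mice. Acsl3 was enriched by 1.45 ± 0.12 in fasted and 2.96 ± 0.25 in fed mice.
Acsl4 was nearly even between fractions, at 0.28 ± 0.09, adjusted p = 0.0208, in fasted mice and 0.45 ± 0.14, adjusted p = 0.0197, in fed mice. In fasted mice its call ended under DESeq2's size factors in edgeR (0.20, adjusted p = 0.0936). Acsl5 was 0.52 ± 0.36, adjusted p = 0.128, in fasted mice and 1.58 ± 0.51, adjusted p = 0.00382, in fed mice, and without fasted IP library C the value for fasted mice was 0.81, adjusted p = 0.000164.

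Lpl and Fabp4 lay on the other side. Over the 3 libraries together, Lpl gave 58 counts in fasted IP against 2134 in fasted supernatant, and 39 counts in fed IP against 13052 in fed supernatant. Scaled for depth, supernatant exceeded IP 34.3-fold (95% interval 26.4 to 45.3) in fasted and 323-fold (236 to 455) in fed mice, intervals that cover counting error only. Fabp4 gave 7 counts in fasted IP against 561 in fasted supernatant, and 12 in fed IP against 155 in fed supernatant, ratios of 74.6 (36.0 to 186) in fasted and 12.5 (6.94 to 24.7) in fed mice. The size of the fasted Fabp4 value moved with single libraries. Supernatant C held 311 of the 561 counts, and the edgeR value of -6.19 ± 0.64 was -5.52 without supernatant C and -6.92 without IP C. In the same supernatants the summed markers were 4287 to 8676 CPM for macrophages, 2991 to 4987 CPM for endothelial cells, 1312 to 2318 CPM for lymphocytes, 1069 to 1606 CPM for stellate cells and fibroblasts and 0.441 to 0.839 CPM for adipocytes, of whose 8 markers 1 was at 0 in fasted and 3 in fed supernatants. Which of these cells the Lpl and Fabp4 counts came from was not tested.
Cd36 and Slc27a1 were split more evenly. Cd36 was -0.98 ± 0.95, adjusted p = 0.193, in fasted mice and -0.86 ± 0.44, adjusted p = 0.0381, in fed mice. Library by library it differed by 0.02, -0.32 and -3.61 (log2, IP minus supernatant) in fasted A, B and C, and by -0.15, -0.84 and -1.90 in fed A, B and C, so library C was the extreme in both feeding states. Slc27a1 was 0.12 ± 0.42, adjusted p = 0.764, in fasted mice and -0.62 ± 0.25, adjusted p = 0.0297, in fed mice. The calls in fed mice were lost in 4 of 6 fits without 1 library, those without IP B, supernatant A, supernatant B or supernatant C for Cd36 (adjusted p 0.0653 to 0.103) and those without IP A, IP B, supernatant A or supernatant C for Slc27a1 (0.065 to 0.116). One fit over all 18 libraries also ended both (-0.85, adjusted p = 0.226 for Cd36 and -0.62, adjusted p = 0.137 for Slc27a1). Both were kept with the mouse as replicate block (-0.97, adjusted p = 0.0129 for Cd36 and -0.59, adjusted p = 0.0150 for Slc27a1). DESeq2 kept both too (adjusted p = 0.0103 for Cd36 and 0.0102 for Slc27a1). The Acsl4 calls were lost in fasted mice without supernatant A or C (0.076 and 0.0532) and in fed mice without IP C, supernatant A or supernatant C (0.0546 to 0.0707).

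**Figure D3:**
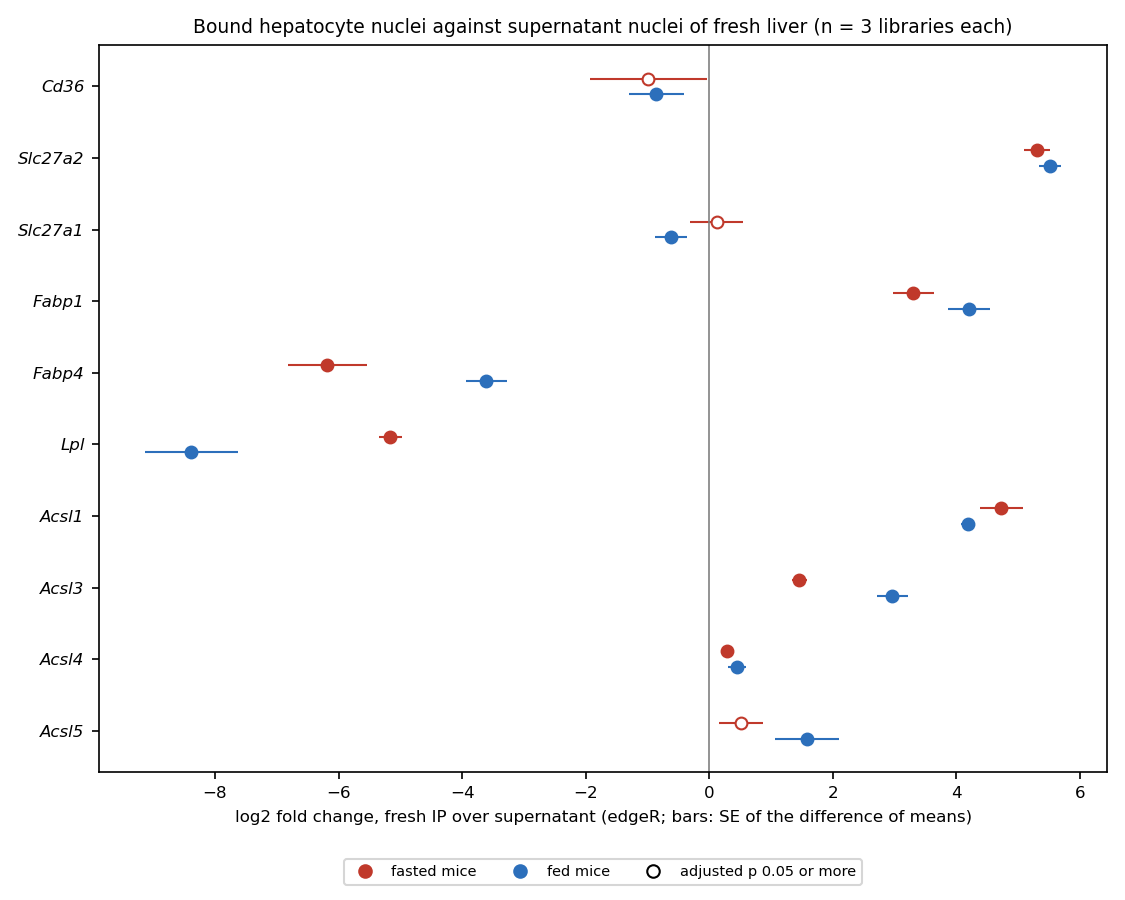
Log2 fold change of fresh IP over supernatant for each gene in fasted mice (red) and fed mice (blue), from edgeR, with bars for SE and open circles for adjusted p of 0.05 or more. Slc27a2, Acsl1 and Fabp1 lie between 3.30 and 5.52, Lpl and Fabp4 between -8.38 and -3.61.

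The order of levels in supernatant was unlike that in IP. Per kb, fasted supernatants were led by Fabp1 (6.85 ± 0.817), Acsl5 (2.28 ± 0.119) and Acsl4 (1.83 ± 0.0878 CPM per kb), and fed supernatants by Lpl (4.57 ± 2.96), Fabp1 (3.61 ± 1.15) and Acsl5 (2.16 ± 0.436 CPM per kb). In fed supernatants the libraries of Lpl and Fabp1 overlapped. Acsl5 took 40.3 ± 0.42% of the Acsl sum in fasted and 40.6 ± 3.25% in fed supernatants, Acsl1 20.8 ± 1.06% in fasted and 17.9 ± 0.24% in fed ones. The exact permutation p (two-sided) for Acsl1 was 0.1, the smallest possible. For Acsl3, at 6.58% in fasted and 7.97% in fed supernatants, it was 0.2.

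Frozen against fresh IP of the same mice asks how far storage of the tissue changed these levels. By edgeR 0 of 9 tested genes passed in fasted mice, where 0.495% of 12720 genes did, and 0 of 9 passed in fed mice, where 0% of 12689 genes did although 909 had an unadjusted p under 0.05 and DESeq2 called 428. DESeq2 called 0 of the genes in fasted mice and 1, Lpl, in fed mice, which was also the only one with an unadjusted p under 0.05. Leaving Lpl aside, the differences of the other 8 genes tested ran from -0.15 to 0.10 in fasted mice and from -0.09 to 0.11 in fed mice, with SE of 0.09 to 1.22. This fit leaves out that the preparations share mice.
In fasted mice, Cd36, Acsl1 and Acsl5 had similar levels in both preparations. Cd36 in fasted A, B and C was 94.4, 123 and 19.7 CPM in frozen IP and 95.6, 112 and 16.1 CPM in fresh IP. Acsl1 was 2482, 2853 and 1235 CPM in frozen IP and 2395, 2642 and 1236 CPM in fresh IP of the same mice. Acsl5 was 179.7, 183 and 81.1 CPM in frozen IP and 179, 174 and 84.5 CPM in fresh IP, so that fasted mouse C was low for all 3 in both. Fabp1 in fed A, B and C was 253, 326 and 416 CPM in frozen IP and 252, 433 and 344 CPM in fresh IP, with B and C in the opposite order.

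Slc27a2 was lower in frozen than in fresh IP in 6 of 6 mice, by 0.11 to 0.23 on the log2 scale. With the mouse as replicate block this passed in fasted mice (-0.15, adjusted p = 0.00437) and not in fed mice (-0.09, adjusted p = 0.647), and without the block it was -0.15 ± 0.19, adjusted p = 0.9998, in fasted mice. The block raised the count of all genes that passed in fasted mice to 2939, against 63 without it.
Lpl in fed mice was 0.693, 2.84 and 1.36 CPM in frozen IP, against 0.258, 0.396 and 0.452 CPM in fresh IP. Every frozen library lay above every fresh one (2.12 ± 0.60, adjusted p = 0.190; DESeq2 2.14, adjusted p = 0.0153), while in fasted mice the 2 preparations overlapped (0.02 ± 0.19). Fabp4, not tested, was higher in frozen than in fresh IP in 6 of 6 mice. The macrophage marker sum was 38.8 to 130.4 CPM in frozen and 13.7 to 28.8 CPM in fresh IP, a median change over the 14 markers of 1.47 in fasted and 2.01 in fed mice, and the endothelial markers had medians of 1.18 and 1.40. Their part in the higher Lpl and Fabp4 was not tested.

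**Figure D4:**
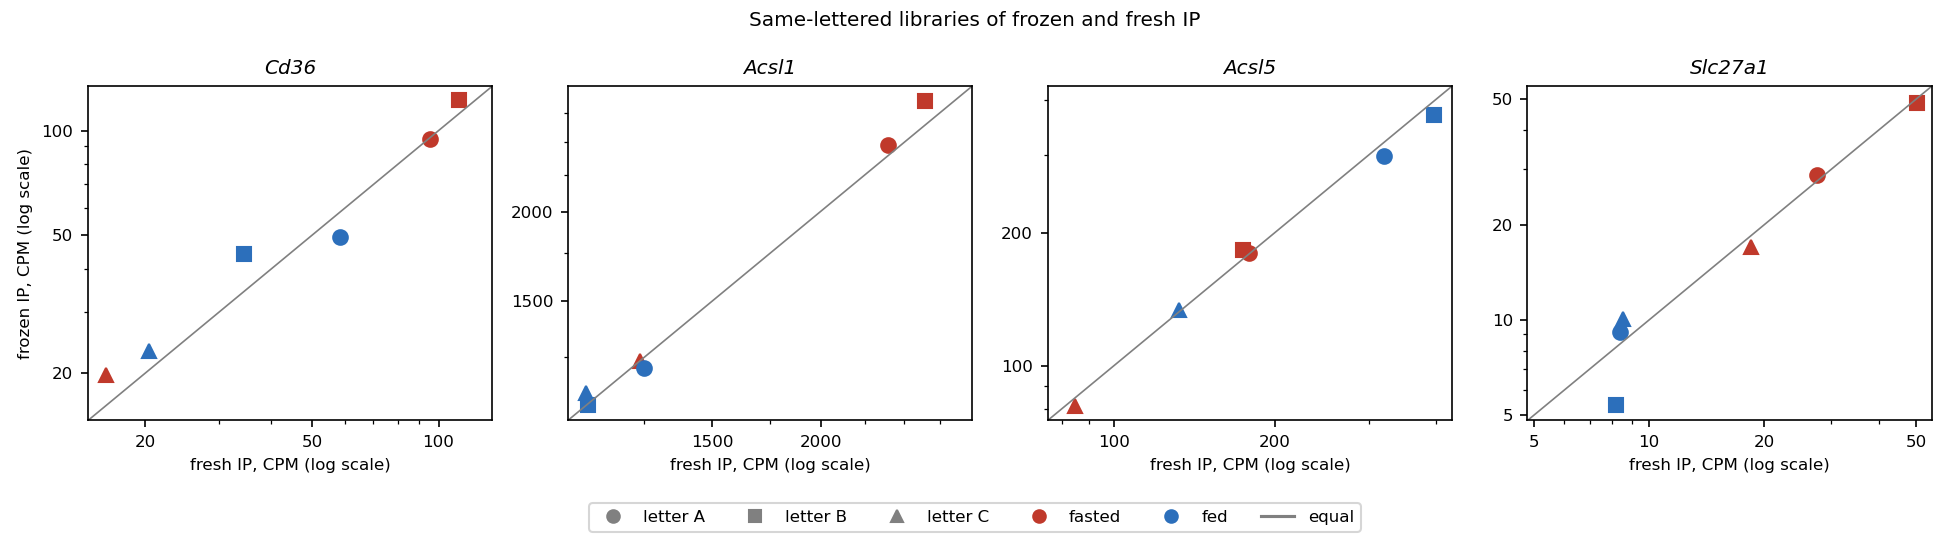
CPM in frozen IP (vertical, log scale) against fresh IP (horizontal, log scale) of the same-lettered library for Cd36, Acsl1, Acsl5 and Slc27a1, fasted in red and fed in blue, with the line of equality. Fasted C sits at the low end of its group on both axes in all 4 genes, with Cd36 at 19.7 CPM in frozen and 16.1 CPM in fresh IP.

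**Figure D5:**
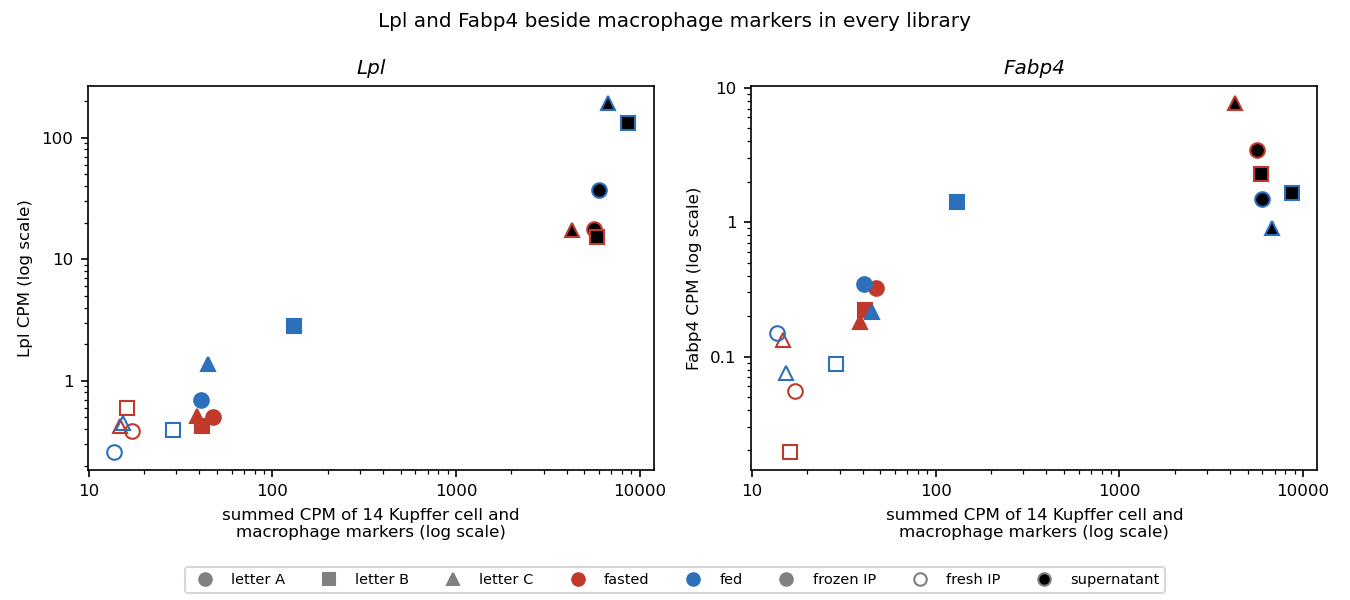
CPM of Lpl and Fabp4 (vertical, log scale) against the summed CPM of 14 macrophage markers (horizontal, log scale) in the 18 libraries, filled in colour for frozen IP, open for fresh IP and black for supernatant, with fasted edges red and fed edges blue. Frozen IP B of fed mice, at a marker sum of 130.4 CPM, had the highest Lpl (2.84 CPM) and Fabp4 (1.42 CPM) of the 12 IP libraries. The same library also had the highest endothelial (320 CPM) and lymphocyte (45.8 CPM) marker sums of these 12. Among supernatants, fasted C had the highest Fabp4 (7.63 CPM), the lowest macrophage sum (4287 CPM) and the highest endothelial sum (4987 CPM).

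The fasting response itself was compared between frozen and fresh IP. By edgeR 0 of 10 genes differed, where 0% of 13162 genes did (43 with an unadjusted p under 0.05, Lpl among them), and DESeq2 called 0 of the 10. Leaving Lpl aside, the differences of the 9 other genes lay between -0.41 and 0.07, with SE of 0.22 to 1.33. This fit too leaves out that the preparations share mice, and with the mouse as replicate block 0 genes passed as well. The 43 are a far smaller share than the 0.05 expected without any difference, so 0 calls do not show that the responses were equal. Lpl had -2.09 ± 0.63, adjusted p = 0.9999, with a change of -1.67 in frozen against 0.40 in fresh IP.

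Other genes of the pathway were taken from 5 lists, described by counts and medians in fresh IP, with rises and falls past the same edgeR threshold. Of 20 genes that use or cleave acyl-CoA or mark PPARA activity, 18 rose and 0 fell. Their median change was 1.57, against 0.01 over all genes, of which 25.1% passed. This list was made of PPARA targets and chosen with earlier results of these data known. Its counts therefore do not rank it against the other lists. In frozen IP 18 of the 20 rose (median 1.59), where 22.6% of all genes passed, and in supernatant 16 rose (median 0.92), where 6.22% passed. Compared with supernatant, 20 were higher in IP in fasted mice (median 3.15), where 80.6% of all genes differed. In fed mice 18 were higher and 1 lower, where 76.4% differed. The part of hepatocyte nuclei left in the supernatant in these rises was not tested. Acot1 and Acot2, thioesterases that split acyl-CoA again, averaged 59.6 and 5.94 CPM in fasted against 1.81 and 0.358 CPM in fed mice (5.11 ± 0.30 and 4.07 ± 0.26). Cyp4a14, a fatty acid omega-hydroxylase, reached 2432 CPM in fasted against 104 CPM in fed mice (4.57 ± 0.29), and Fgf21, a fasting hormone of the liver, 18.1 against 0.549 CPM (5.03 ± 0.58). Acot1 and Acot2, and the Cyp4a genes, are near-identical copies among which reads may be split. Acaa1b, a peroxisomal thiolase (0.14 ± 0.35, adjusted p = 0.732), did not pass and is named after its values were seen.
Of 8 tested acyl-CoA synthetases outside the Acsl family, 0 rose and 3 fell, where 25.1% of all genes passed in either direction. The fallers were Acss2, the cytosolic acetyl-CoA synthetase (-3.04 ± 0.56), and the medium-chain synthetases Acsm1 (-1.15 ± 0.24) and Acsm5 (-1.09 ± 0.20). The median of the 8 was -0.76. Acss2 averaged 64.8 CPM in fasted and 543 CPM in fed mice.

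Of 15 tested further transport proteins, binding proteins and fatty acid receptors, 5 rose and 2 fell, with a median of 0.22, where 25.1% of all genes passed. The risers included Mfsd2a, a lysophospholipid carrier (2.77 ± 0.62), Scp2, the peroxisomal sterol carrier protein (1.88 ± 0.23), Fabp2, the intestinal binding protein (1.40 ± 0.25), and Scarb2, a lysosomal relative of CD36 (0.80 ± 0.24). Slc27a5, the bile acid CoA ligase and transport protein FATP5, fell (-1.24 ± 0.18), whereas Slc27a2 and Slc27a1 rose. Fabp5, the epidermal binding protein, averaged 0.169 CPM in fasted and 6.16 CPM in fed mice (-5.03 ± 0.90).
In the list around lipoprotein lipase, 2 of 15 rose and 4 fell (median -0.34), where 25.1% of all genes passed. Angptl4, a secreted inhibitor of lipoprotein lipase, reached 232 CPM in fasted, against 20.4 CPM in fed mice (3.52 ± 0.55), and Furin, a protease that cleaves the lipase, rose by 0.40 ± 0.12. Those that fell included the receptor Vldlr (-1.85 ± 0.27), hepatic lipase, coded by Lipc (-1.36 ± 0.22), and Sel1l, which helps the lipase leave the endoplasmic reticulum in mice (-0.47 ± 0.11).
Among 19 regulators, 6 rose and 1 fell (median 0.16), where 25.1% of all genes passed. Ppargc1a, the coactivator of PPARA (1.95 ± 0.28), Foxo1 (1.41 ± 0.30), Creb3l3 (1.19 ± 0.18) and Nr1i2, the receptor PXR (1.05 ± 0.34), rose, and Nr3c1, the glucocorticoid receptor, fell (-0.75 ± 0.08). Ppara itself (0.31 ± 0.23, adjusted p = 0.288) and Pparg (-0.16 ± 0.29, adjusted p = 0.631), also named after their values were seen, did not pass.

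Over the 12 IP libraries, which come from 6 mice, the gene whose log2 CPM most resembled each member among 12472 genes was Lonp2 for Cd36 (Pearson r 0.961), Hacd3 for Slc27a2 (0.994), 5031439G07Rik for Slc27a1 (0.973), Acot3 for Fabp1 (0.916), Timd4 for Fabp4 (0.938) and Rac2 for Lpl (0.921). For the synthetases it was Fbxo36 for Acsl1 (0.975), Cdh2 for Acsl3 (0.992), Atp13a3 for Acsl4 (0.969) and Cdcp1 for Acsl5 (0.981). Timd4 is one of the macrophage markers used above. Fabp4 had only 1 to 18 counts in IP libraries. In supernatants, fasted C had the highest Fabp4 (7.63 CPM) and the lowest macrophage marker sum (4287 CPM). All the correlations over IP libraries share mice, fractions and depth between points and are descriptions only.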

How the data were processed

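Nuclear RNA libraries (stranded kit, no poly-A selection, 50 bp paired reads, per the labels' protocols) of 18 liver preparations in 6 groups of 3 were used. The authors deposited raw counts per gene for 20105 genes, with gene coordinates and length, and a table of their own log2 fold changes and adjusted p-values, fasted over fed. STAR 2.4.2a, DESeq2 1.24.0 and mm10 are named in the submitters' processing notes; the counting tool and strand setting are not given in the sources used here. The letters A, B and C stand in no sample label, so columns were assigned to groups, and 6 further per-sample columns were not used.

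Counts were tested with edgeR 4.0.16 (limma 3.58.1, R 4.3.3): TMM scaling, filterByExpr with a minimum count of 10, quasi-likelihood F test on the groups of each comparison, Benjamini-Hochberg adjustment over all genes tested, threshold 0.05. SE come from log2 CPM with a prior count of 2, libraries taken as independent. The scripts were tested on simulated data. The titles give the same mouse numbers to all preparations. Same-lettered libraries deviated together within a feeding state (r of 0.555 to 0.902 for frozen and fresh IP, 0.152 to 0.437 for IP and supernatant). Between letters r was -0.586 to 0.010. Deviations were taken from the mean of 3 libraries, which pushes r between letters down when r within letters is high. The values between letters are thus no separate support. The letter was the replicate block of a paired alternative. No pair of libraries agreed within sampling noise. Depth was 13828945 to 54434263 counts. Alternatives were DESeq2's size factors in edgeR, DESeq2 1.42.0, no count filter, all 18 libraries in one fit, the replicate block, and leaving out each library. The 10 genes, the other lists and the tests were chosen with earlier results of these data known. Beyond the 10, up to 4 genes per list and direction with the largest change past the threshold in fresh IP were named, and for each of the 10 the gene with the highest r over IP libraries. Some genes that this rule would name are not reported here. Promoters came from RefSeq (GRCm38.p6), overlaps from GENCODE.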

Additional observations from a re-analysis of the deposited data

Results flagged for a closer look

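The fasting change of Acsl3 differed between hepatocyte nuclei and supernatant of fresh liver, by a test of the difference itself in edgeR: -1.62 in IP against -0.16 in supernatant, a difference of -1.51 ± 0.28 (SE, n = 3 libraries a group, adjusted p = 0.00406). All 3 fasted IP libraries lay below all 3 fed ones, while the supernatants overlapped. The fasting change of Lpl also differed, in the opposite sense: 0.40 in IP against -2.84 in supernatant, a difference of 3.24 ± 0.77 (adjusted p = 0.0415). It rests on 9 to 31 counts a library in IP.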

How the results depend on the processing

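Of 33 member differences past the threshold, 21 were kept in every alternative run and 12 were lost in some, and 12 that had not passed were gained in some. Kept in all were Slc27a2 in each fasting comparison, Slc27a1 and Acsl3 in both IPs, the IP against supernatant differences of Slc27a2, Acsl1, Fabp1, Acsl3, Lpl and Fabp4 in both feeding states and of Acsl5 in fed mice, and the response difference of Acsl3. Counts of genes moved more. DESeq2 called 1871 genes for fasting in supernatant, 350 for frozen against fresh IP in fasted and 428 in fed mice (1 member, Lpl), and 2306 for the response difference of IP and supernatant. One fit over all 18 libraries gave 2 members for fasting in supernatant, and 295 genes in fasted and 479 in fed mice for frozen against fresh IP. The replicate block gave 2939 genes and 1 member (Slc27a2) in fasted and 181 genes in fed mice for frozen against fresh IP. It also moved Slc27a1 in fasted IP against supernatant to -0.018 and brought Fabp4 past the threshold in the response difference (-2.50, adjusted p = 0.0316), and the all-library fit moved Lpl in fasted frozen against fresh IP to -0.012. Leaving out 1 library gave 1429 to 2643 genes for fasting in fresh IP, 1168 to 2271 genes and 3 to 5 members in frozen IP, 197 to 624 genes and 2 to 3 members in supernatant, 0 to 1 genes for frozen against fresh IP in fasted and 0 to 58 in fed mice, and 771 to 1485 genes and 1 to 2 members for the response difference of IP and supernatant. Values near 0 changed sign in these fits, none of them past the threshold in the full data: Fabp1 in fresh IP (-0.27 to 0.28) and frozen IP (-0.26 to 0.30), Acsl4 in fresh IP (-0.15 to 0.091), Acsl5 in supernatant (-0.024 to 0.25), Slc27a1 in fasted IP against supernatant (-0.39 to 0.42), frozen against fresh IP for Lpl in fasted (-0.11 to 0.25) and Slc27a2 in fed mice (-0.23 to 0.035), the response difference of frozen and fresh IP for Slc27a2 (-0.18 to 0.090), and that of IP and supernatant for Cd36 (-0.56 to 0.36) and Slc27a2 (-0.34 to 0.0038). The median of all genes tested in IP against supernatant was -0.18 by DESeq2 and 0.018 by edgeR in fasted mice, and -0.13 by DESeq2 and 0.0076 by edgeR in fed mice. The causes were not tested. Lpl and Fabp4 in IP are limited by counts of 1 to 63 a library.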
